A study of Caenorhabditis elegans with 2 samples.

Results

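The regions described here are ALY-2 peaks at the starts of noncoding RNA genes and of no protein-coding gene, in Caenorhabditis elegans L4 larvae. The assay was chromatin immunoprecipitation with sequencing (ChIP-seq) of strain OP217, genotype unc-119(ed3) III; ddIs172, a stable transgenic line in which ALY-2 carries GFP-FLAG at its C-terminus. The material was whole animals of pooled males and females, so signal from different tissues cannot be told apart, and the promoter that drives the transgene is not given in the sources used here. There was 1 group with biological replicates 1 and 2, and control samples were not analysed here. Nothing in the labels says that the replicates came from separate cultures, so the spread between them may be technical. A peak was a member if its summit lay between 1000 bp before and 200 bp after a transcript start of a gene that is neither protein-coding nor a pseudogene, and in no such window of a protein-coding gene. Of the 3341 peaks in the authors' combined ce11 list, 423 were members, or 12.7% (exact 95% interval 11.6 to 13.8%). Another 1154 peaks lay at protein-coding starts, of which 206 also lay at a noncoding start, and 1764 lay at neither.

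ALY proteins belong to the Aly/REF family, RNA-binding adaptors best known for loading export factors onto mRNA made by RNA polymerase II. The noncoding genes considered here are made in different ways. tRNA genes are read by RNA polymerase III through an A box and a B box inside the gene, and the RNA component of RNase P, rpr-1, is also a polymerase III product. Small nucleolar RNAs (snoRNAs) guide chemical modification of ribosomal RNA, and many sit in introns of protein-coding genes. Small nuclear RNAs (snRNAs) serve splicing, spliced leader RNAs are joined to the front of worm mRNAs, microRNAs (miRNAs) repress mRNAs, and piRNAs of the germline lie in large clusters on chromosome IV, each with its own short upstream promoter element, the Ruby motif. The annotation's class ncRNA holds the remaining, mostly uncharacterised, noncoding genes.

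By the biotype of the nearest start, 198 members lay at ncRNA genes, 86 at tRNA genes, 60 at snoRNA genes, 56 at piRNA genes, 11 at miRNA genes, 7 at snRNA genes, 3 at antisense RNA genes and 2 at lincRNA genes. No member lay nearest to an rRNA gene. The members had 407 different nearest genes. More than 1 noncoding window, and at most 11, held the summit in 181 members. The 370-bp peak reached into the nearest gene itself in 275 of the 423 members. The class name therefore says which start was nearest, not which gene was bound.

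The tRNA members with the highest signal are shown first, because matches to the core of their B box were also found near some snoRNA summits. The form of the core used was chosen after the windows had been seen. Whether the snoRNA matches act as a B box was not tested. Each sequence is the gene's own strand with 20 bases on each side, from the ce11 assembly (WBcel235), and capitals mark the match to the B box core GTTCNANNC.
T18D3.t1, chrX:12458156-12458267, minus strand: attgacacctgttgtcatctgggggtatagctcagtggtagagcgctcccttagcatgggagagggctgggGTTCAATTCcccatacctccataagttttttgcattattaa
F56F3.t1, chrIII:4470866-4470978, minus strand: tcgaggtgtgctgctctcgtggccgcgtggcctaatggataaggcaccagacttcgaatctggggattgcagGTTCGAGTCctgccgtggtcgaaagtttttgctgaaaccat
C33G3.t2, chrX:14063926-14064038, minus strand: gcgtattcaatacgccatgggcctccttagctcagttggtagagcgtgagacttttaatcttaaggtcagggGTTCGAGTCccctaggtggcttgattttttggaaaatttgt
Of the 18 snoRNA members in the authors' reproducible list, 8 have a match to the same core within 100 bp of the summit, and 6 of these are shown next; Y23H5B.10 and T19B4.8 are the others. Each runs from 90 bases before the core to 20 bases after it, on the gene's strand and in the same assembly, with the core in capitals. F30H5.4, M106.6, F11A10.9, C04G6.12 and T19B4.8 are named here after their values were seen.
C51F7.4, chrV:12303548-12303666, plus strand: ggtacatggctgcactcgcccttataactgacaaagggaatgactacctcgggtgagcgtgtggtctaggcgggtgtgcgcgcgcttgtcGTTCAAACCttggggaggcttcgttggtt
F32E10.10, chrIV:7574021-7574139, plus strand: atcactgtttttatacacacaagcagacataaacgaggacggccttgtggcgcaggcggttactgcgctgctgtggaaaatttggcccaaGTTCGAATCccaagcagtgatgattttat
F30H5.4, chrIII:502690-502808, plus strand: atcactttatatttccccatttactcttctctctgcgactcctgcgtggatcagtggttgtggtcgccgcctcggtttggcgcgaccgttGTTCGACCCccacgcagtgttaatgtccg
M106.6, chrII:10840210-10840328, plus strand: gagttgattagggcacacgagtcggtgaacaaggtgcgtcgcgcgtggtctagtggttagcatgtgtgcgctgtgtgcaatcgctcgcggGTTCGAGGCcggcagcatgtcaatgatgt
F11A10.9, chrIV:12086599-12086717, plus strand: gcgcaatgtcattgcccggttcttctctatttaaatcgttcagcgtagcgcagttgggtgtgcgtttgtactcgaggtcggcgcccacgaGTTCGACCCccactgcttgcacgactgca
C04G6.12, chrII:5105217-5105335, minus strand: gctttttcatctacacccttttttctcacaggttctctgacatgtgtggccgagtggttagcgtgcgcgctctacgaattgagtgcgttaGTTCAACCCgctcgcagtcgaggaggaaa
In F32E10.10, F30H5.4, M106.6, F11A10.9 and C04G6.12 the core began 11, 24, 17, 20 and 14 bases before the annotated snoRNA start, and in C51F7.4 it began 39 bases after it. In Y23H5B.10 and T19B4.8 it began 8 and 12 bases before the start. The core thus began shortly before the annotated start in 7 of the 8, and in all 8 it was on the strand of the snoRNA. The window of C51F7.4 held 2 matches, and only the match shown is counted here. The last set holds the member with the highest signal, the snoRNA member with the highest signal and C17C3.23, whose window also holds the spliced leader gene sls-2.2, as 121 bases centred on the summit, on the strand of the nearest gene, with bases of that gene in capitals.
ZK994.7, chrV:8500518-8500638, plus strand: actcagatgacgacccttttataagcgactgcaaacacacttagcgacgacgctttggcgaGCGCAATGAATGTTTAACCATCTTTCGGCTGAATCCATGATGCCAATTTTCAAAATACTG
ZK930.13, chrII:11880543-11880663, plus strand: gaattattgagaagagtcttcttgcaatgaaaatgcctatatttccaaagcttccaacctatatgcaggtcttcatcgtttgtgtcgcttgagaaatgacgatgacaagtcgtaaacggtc
C17C3.23, chrII:5543665-5543785, minus strand: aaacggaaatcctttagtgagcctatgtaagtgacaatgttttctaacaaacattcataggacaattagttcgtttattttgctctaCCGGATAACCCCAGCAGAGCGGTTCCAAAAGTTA
ZK994.7 has its summit 1 bp before the annotated start, while the summit at ZK930.13 is outside the gene, which therefore has no capitals in its window.

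The question put to these regions was which classes of noncoding gene the peaks mark, where in the gene they lie and how strong they are. Signal is the authors' value for a peak, on a scale that is not stated, so values are set against each other only inside 1 list. The reproducible list, past the authors' IDR threshold (irreproducible discovery rate, which asks how well peak ranks repeat between replicates), holds 193 peaks. They are exactly the 193 combined peaks with the highest signal, with none under 32.6. A share in this list and a median signal are therefore 2 views of 1 measure. Being in the list does not mean that both replicates had a peak. The member F42C5.12, for example, is in it with no overlapping replicate 1 peak. Intervals below are exact binomial ones at 95% for shares and cover counting error over peaks only; read depth is unknown.

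In that list were 40 of the 423 members, or 9.46% (6.84 to 12.7%), against 5.78% of all combined peaks and 69 of 1154 peaks at protein-coding starts, or 5.98%. The 11 miRNA, 7 snRNA, 3 antisense RNA and 2 lincRNA members, of which 1, 1, 0 and 1 were in the list, are too few to rank. The larger classes differed widely. Of the 60 snoRNA members 18 were in the list, or 30% (18.8 to 43.2%), followed by 7 of 86 tRNA members, or 8.14% (3.34 to 16.1%), 11 of 198 ncRNA members, or 5.56% (2.81 to 9.72%), and 1 of 56 piRNA members, or 1.79%. The snoRNA interval lay wholly above the share of all combined peaks, and the intervals of tRNA and ncRNA held it. A like share was seen for snoRNA genes whose peak also lay at a protein-coding start and was therefore no member, with 9 of 31 in the list, or 29.0%. Median signal had the same order, at 23.9 for snoRNA, 21.7 for tRNA, 19.3 for ncRNA and 18.4 for piRNA members, against 20.03 for the 423 members together and 19.5 for all combined peaks. Just inside the list's limit lay C04G6.12, with a signal of 32.9, and just outside it the highest member had 32.5.

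**Figure D1:**
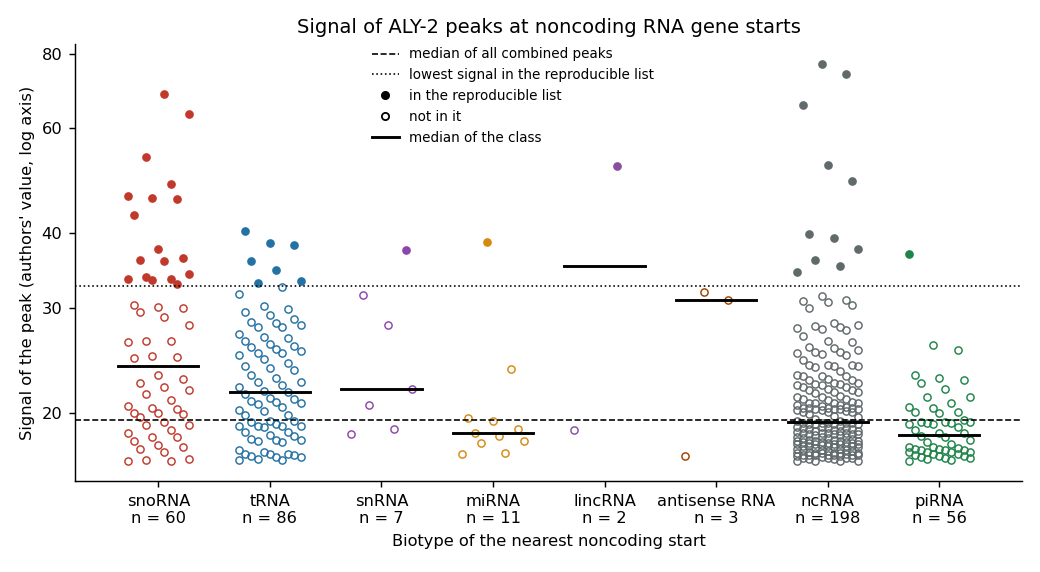
Signal of each of the 423 members (authors' value, log axis) by biotype of the nearest start; filled points are in the reproducible list, solid lines are class medians, and the dashed and dotted lines are the median of all combined peaks (19.5) and the lowest signal in the reproducible list (32.6). The snoRNA column has 18 filled points of 60 and the piRNA column 1 of 56.

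Classes occupy very different amounts of genome, so peaks were also counted per Mb of the window that belongs to each class and to no protein-coding gene. Noncoding windows together held 39.8 peaks per Mb over 10.6 Mb, close to the 33.3 per Mb of the whole nuclear genome. Behind this sum stood 246 peaks per Mb at snoRNA and 222 at tRNA starts, 90.3 at snRNA, 59.8 at miRNA, 36.2 at ncRNA and 14.0 at piRNA starts. The snoRNA and tRNA windows are the densest although they cover only 0.243 and 0.387 Mb, while piRNA windows, at 4.01 Mb, were less dense than the genome. For peaks of the reproducible list the snoRNA windows held 73.9 per Mb and the tRNA windows 18.1 per Mb, against 1.92 per Mb genome-wide. The piRNA windows held 0.250 per Mb. The 11 miRNA, 7 snRNA, 3 antisense RNA and 2 lincRNA members are too few for their densities to be ranked.

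**Figure D2:**
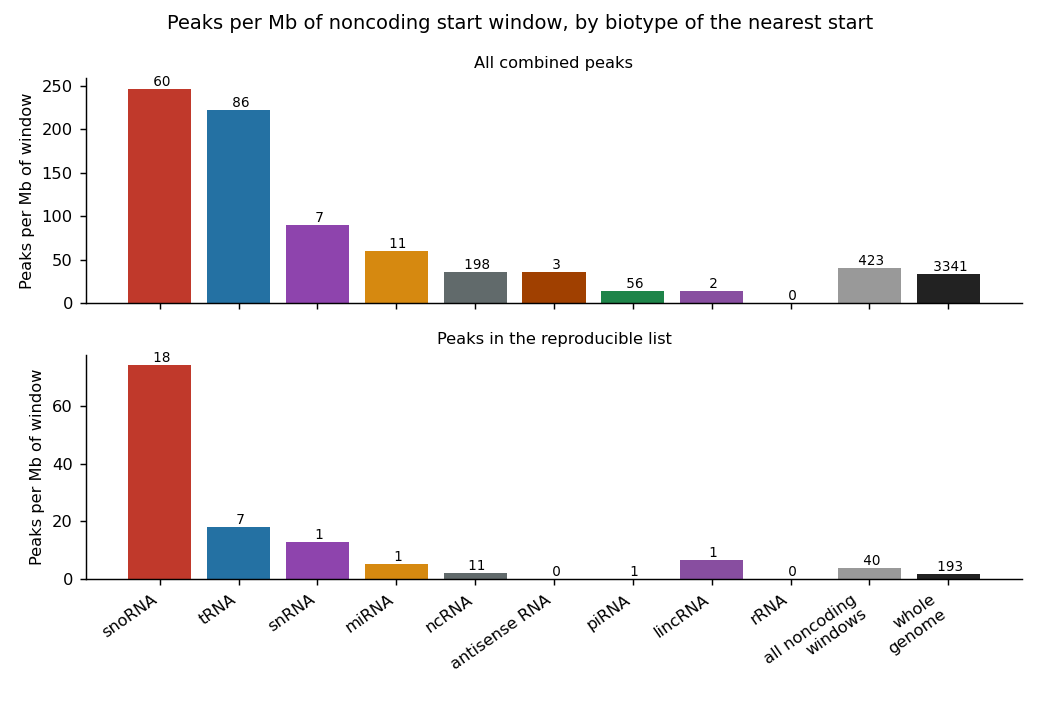
Peaks per Mb of start window by biotype of the nearest start, for all combined peaks (top) and for the reproducible list (bottom), with the number of peaks above each bar; the last bars are all noncoding windows and the whole nuclear genome. The snoRNA and tRNA bars stand at 246 and 222 per Mb, against 33.3 for the genome.

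Counted by gene rather than by peak, 62 of the 313 snoRNA genes with some window outside protein-coding windows had a member, or 19.8%, and 120 of 591 tRNA genes did, or 20.3%. For miRNA genes it was 18 of 246, or 7.32%, for ncRNA genes 316 of 7503, or 4.21%, and for piRNA genes 179 of 15159, or 1.18%. Genes in clusters share peaks, so these are not independent: 179 piRNA genes shared 66 members, and 120 tRNA genes shared 102.

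The position of the summit also differed by class. In all, 200 of 423 members, or 47.3%, had the summit within 100 bp of the nearest start. Summits at tRNA genes lay close to the start on either side: 76 of 86, or 88.4% (79.7 to 94.3%), were within 100 bp, with 43 upstream and 43 at or past it, and 36 inside the gene. Summits at snoRNA genes sat mostly just before it, with 46 of 60 upstream and a median of 51.5 bp upstream. The snoRNA windows reached 1213 peaks per Mb in the 100 bp before the start and 369 in the 100 bp after it. The tRNA windows reached 795 and 1246 per Mb in the same bins. At ncRNA genes the 100 bp after the start were densest, at 104 per Mb. At piRNA genes the 100 bp before the start held 6.93 per Mb, below the bins on either side, so the piRNA members showed no gathering at the start.

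**Figure D3:**
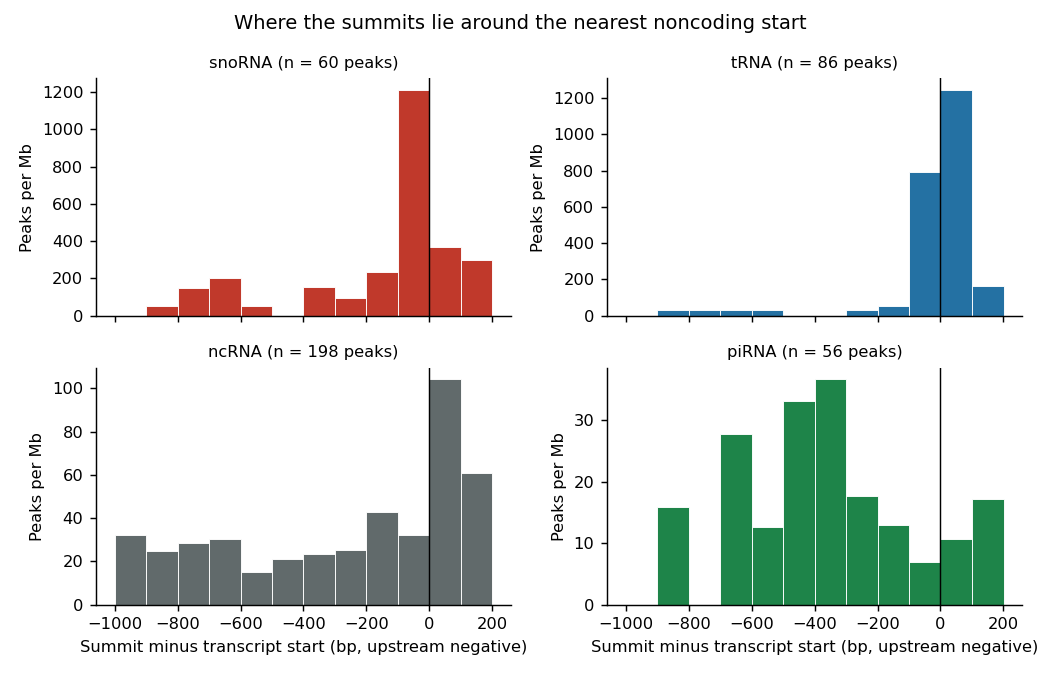
Peaks per Mb of window in 100-bp bins of the distance from the nearest transcript start (upstream negative) for the 4 classes with most members; vertical scales differ between panels. The snoRNA peak stands just before the start at 1213 per Mb, the tRNA peak over the start at 795 and 1246 per Mb, and piRNA shows no peak at 0.

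Of the 20 members with the highest signal, 8 were nearest to a snoRNA gene. ZK994.7 (peak at chrV:8500393-8500762, ce11), in an intron of pxn-1 (peroxidasin), had a signal of 68.4 in the combined list, 38.0 in replicate 1 and 24.3 in replicate 2. C51F7.4, hosted by frm-7, had 63.4 combined, 24.4 in replicate 1 and 39.1 in replicate 2. K11C4.6, in an intron of the beta-spectrin gene unc-70, had 53.8 combined, 29.4 in replicate 1 and 39.4 in replicate 2. Each of these was above the 99th percentile of both replicates' lists, so neither replicate alone carried them. F32E10.10, with no host gene, had 48.3, Y23H5B.10 had 46.2, F26D10.24 in an intron of hsp-1 (a constitutive HSP70 chaperone) had 45.8, C10C6.8 in the cation-transporting ATPase gene catp-8 had 45.7, and T06C12.16 had 43.0. F26D10.24 has another member farther upstream, with a signal of 29.5. All 8 of these snoRNA peaks had their summit within 105 bp of the snoRNA start.

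A host gene was defined as a protein-coding gene whose span holds the whole noncoding gene. Of the 60 snoRNA members 33 had a nearest gene with a host on the same strand, 5 had one on the other strand and 22 had none. Hosted genes were 63.3% of snoRNA members (49.9 to 75.4%), against 60.4% of the 313 snoRNA genes, so the members were not richer in hosted genes beyond counting error. Likewise 34 of 157 snoRNA genes with a same-strand host had a member, or 21.7%, and 23 of 124 with no host, or 18.5%. The rates for hosted and unhosted snoRNA genes were close.

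The strict core GTTCGANNC, searched on both strands within 100 bp of the summit, was in 9 of 60 snoRNA windows, or 15% (7.10 to 26.6%), against 26 of the 346 windows around annotated snoRNA starts, or 7.51%, and 4.16% of all combined peaks. The interval held the share of all snoRNA starts, so a difference from them was not shown with the strict core. It lay above the share of all combined peaks. The looser core GTTCNANNC, chosen after the windows had been seen and containing every strict match, was in 21 of 60 snoRNA windows, or 35% (23.1 to 48.4%). It was in 16.5% of the windows around all snoRNA starts, 11.3% of all combined peaks and 8.65% of the 3215 combined peaks with no tRNA gene under them. Windows of snoRNA members are centred on summits, with a median of 51.5 bp before the start. They and the windows around starts are therefore not like for like, for either core. No tRNA gene lay under any of the 60 snoRNA peaks. Taken by gene, the looser core lay on the gene's strand in the 60 bases before the start of 29 snoRNA genes, of which 16 had a member, or 55.2% (35.7 to 73.6%), against 46 of the 284 other snoRNA genes, or 16.2% (12.1 to 21.0%). Members of the reproducible list were found at 8 of the 29 and 12 of the 284. With the strict core, 11 of 15 genes had a member, against 51 of 298. Because the looser core was picked from windows that are among these, its counts describe the sequences and carry no test. The search before gene starts was not planned, so the strict core's counts by gene are likewise description only. Not every strong snoRNA peak has an exact match to the looser core: ZK994.7, K11C4.6, F26D10.24, C10C6.8 and T06C12.16 hold none within 100 bp of the summit. Near matches were not counted. The stronger K11C4.6 summit lies 105 bp before the snoRNA start, so its window ends short of that start. The 21 snoRNA members with the looser core had a median signal of 28.9, against 22.1 for the 39 without it.

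**Figure D4:**
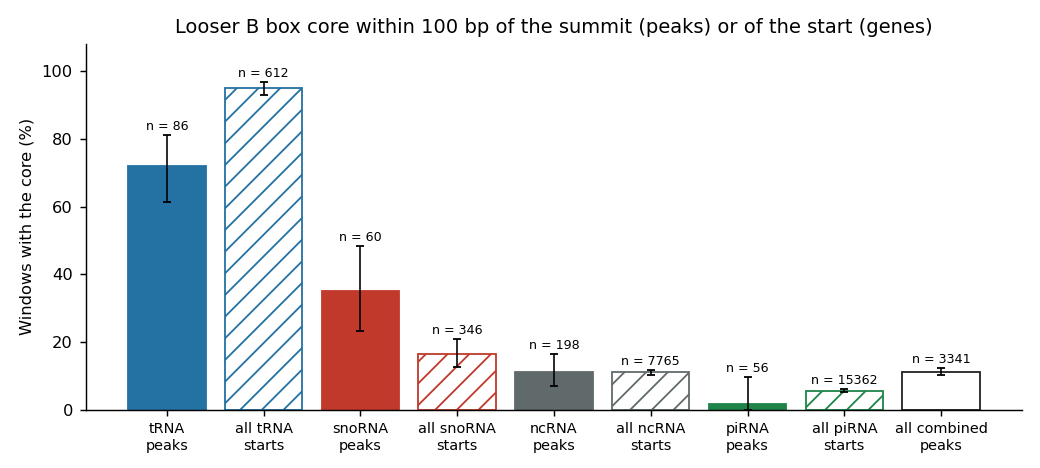
Percent of windows (100 bp on each side) with the looser B box core, around the summits of members (filled) and around all annotated starts of the same class (hatched), with all combined peaks last; bars show exact 95% intervals and n is the number of windows. snoRNA peaks stand at 35%, against 16.5% of all snoRNA starts and 11.3% of all combined peaks. Windows around summits and around starts are centred differently, so the filled and hatched shares are not like for like.

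Among tRNA members, T18D3.t1 (tRNA-Ala, on X) was highest, with a signal of 40.4 combined, 16.8 in replicate 1 and 20.3 in replicate 2. F56F3.t1 (tRNA-Arg, on III) had 38.6 combined, 21.8 in replicate 1 and 18.3 in replicate 2. C33G3.t2 (tRNA-Lys, on X) had 38.2 combined, 14.1 in replicate 1 and 21.8 in replicate 2. All were above the 94th percentile in each replicate, though below the strongest snoRNA peaks. The looser B box core was in 62 of 86 tRNA windows, or 72.1%, against 95.1% of windows around all 612 tRNA starts; the first are centred on the summit, which can lie off the gene.

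Every tRNA isotype except tRNA-Sec, which has 1 gene, had a gene with a member, at uneven rates. Members reached 19 of 54 tRNA-Gly genes, or 35.2%, and 12 of 38 tRNA-Glu genes, or 31.6%. Next were 4 of 13 tRNA-Phe genes, or 30.8%, and 8 of 29 tRNA-Ile genes, or 27.6%. At the other end were 1 of 27 tRNA-Gln, 1 of 20 tRNA-Met and 3 of 36 tRNA-Ser genes. These isotypes were chosen after their values were seen, and gene copies of 1 isotype share sequence and sometimes a peak. In the median tRNA member 83.9% of the 30-base words under the peak occur once in the genome, against 100% in the median member and the median combined peak, and the part of this in the tRNA counts was not tested.

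Members on X were mostly tRNA and ncRNA ones. Of the members 98 of 423 lay on X, or 23.2% (19.2 to 27.5%), against 12.7% of all combined peaks, while X makes up 17.7% of the nuclear genome. X also holds 21.2% of the noncoding start windows that define members, a share inside that interval, and had 43.5 members per Mb of window, against 39.8 over all chromosomes. The tRNA members supplied 43 of these and the ncRNA members another 43. On X 58 of 273 tRNA genes had a member, or 21.2%, against 62 of 318 on the autosomes, or 19.5%, so the rates on X and elsewhere were close. In the reproducible list 4 of 40 members lay on X, or 10% (2.79 to 23.7%), against 7.25% of all its peaks. Of the 56 piRNA members 49 lay on IV, where most piRNA windows are, with 3.50 of 4.01 Mb.

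ncRNA genes gave the strongest members of all, but not a raised share. ZK930.13 (peak at chrII:11880418-11880787) had the highest signal, 76.9, with 39.3 in replicate 1 and 40.1 in replicate 2, 349 bp upstream of the gene. Y82E9BR.30 (peak at chrIII:1419664-1420033) had 73.9, with 31.3 in replicate 1 and 43.7 in replicate 2, but its summit lay 860 bp upstream of the gene, in the 3' UTR of Y82E9BR.3. rpr-1 (peak at chrI:13463782-13464151), inside an intron of ints-8 (an Integrator subunit) on the other strand, had 65.7 combined, 16.9 in replicate 1 and 46.8 in replicate 2, with the summit 12 bp past its start. In rpr-1 the peak therefore sat on the gene, and in ZK930.13 and Y82E9BR.30 it did not. C54D2.14 had 52.0 with its summit 57 bp past the start, C17C3.23 had 49.0 at 27 bp upstream, and B0523.6, whose window also holds the tRNA gene B0523.t1, had 39.2 at 18 bp past the start. Of the 198 ncRNA members 13 lay over a tRNA gene and 4 over a snoRNA gene that was not the nearest start. F58G1.11, at 39.8, overlapped a replicate 1 peak of only 7.30, at the 6.73rd percentile of that list, and a replicate 2 peak of 25.6 at the 99.7th.

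Among the smaller classes, most members were single and modest. The snRNA-class member F42C5.12 had a signal of 37.4, with 32.0 in replicate 2 and no overlapping peak in replicate 1. sls-2.15, a spliced leader gene on III with sls-2.14 in the same window, had 31.5, and R07E5.16 in an intron of dhc-4 had 28.1. The other spliced leader genes with a member were sls-2.2, in the window of C17C3.23, and sls-2.9, in the window of M01E5.t1, a tRNA member with a signal of 26.8; together 4 of 30 spliced leader genes had one. cel-mir-50, a miRNA hosted by the talin gene tln-1, had a signal of 38.7 at 529 bp upstream, in a coding exon of tln-1, and a further member at 17.1. cel-mir-55b and cel-mir-229 had 23.7 and 19.6. linc-80 (peak at chrI:8975453-8975822) had 51.8, 522 bp upstream of its start and in the 3' UTR of the fatty acid synthase gene fasn-1, and linc-5 had 18.7. The antisense gene K11D9.5 had members of 31.8 and 31.0 in coding exons of sca-1, the calcium pump on the other strand, and anr-6 had 16.9. No member was found for the 16 rrn-4 (5S rRNA) genes, mrpr-1, yrn-1, tts-1, rncs-1 or lep-5.

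piRNA members were the weakest class by median signal. The highest, 21ur-8164, had 36.9, with 14.9 in replicate 1 and 19.1 in replicate 2; its summit lay 385 bp upstream, in an intron of the ankyrin gene unc-44. 21ur-14659, in a coding exon of gstk-2, had 26.0 and no replicate 1 peak, and 21ur-6727 had 25.4 and no replicate 2 peak. Of the 56 piRNA members 21 had their summit in a coding exon, against 80 of all 423 members, and 3 in a 3' UTR. The summit lay outside protein-coding genes in 22 of the 56, against 176 of all 423. Lying in a protein-coding gene was thus not particular to piRNA members. In 32 of the 56 the nearest piRNA gene lay inside a protein-coding gene, or 57.1% (43.2 to 70.3%), against 38.0% of piRNA genes. The first is a share of peaks and the second a share of genes in clusters that share peaks, so a preference was not tested. The Ruby motif core CTGTTTCA, searched on both strands, was within 100 bp of 8 of 56 piRNA summits, or 14.3%, against 40.02% of windows around annotated piRNA starts and 1.41% of all combined peaks. The first windows are centred on the summit, which lay within 100 bp of the start in only 15 of the 56. The shares around summits and around starts are therefore not like for like.

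Over all members, the nearest gene lay inside a protein-coding gene in 226 of 423, or 53.4%, with 102 on the host's strand and 124 on the other. The summit itself lay in an intron in 147 members, in a coding exon in 80, in a 3' UTR in 19, in a 5' UTR in 1 and outside protein-coding genes in 176. tRNA members were on the host's strand in 19 cases and on the other strand in 25. By gene, 33 of 121 tRNA genes lying antisense in a host had a member, or 27.3%, against 27 of 159 in sense, or 17.0%, and 60 of 311 with no host, or 19.3%. Members of the reproducible list numbered 3 for antisense, 3 for sense and 4 for no host. These genes can share peaks, and the difference was not tested.

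Sequence around the summit was richer in G and C at members than elsewhere. Median GC within 100 bp was 42.8% (41.8 to 43.8%, order-statistic interval), against 39.8% for all combined peaks and 39.3% at protein-coding starts. The tRNA members had 46.3%, snoRNA 45.5%, ncRNA 41.5% and piRNA 38.1%, so GC ran in the same order as signal except that tRNA and snoRNA changed places. Its part in the signal was not tested.

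The members overlapped peaks of both replicates at a rate close to that of all combined peaks, but a replicate 2 peak somewhat more often. An overlapping replicate 1 peak was found for 335 of 423 members, or 79.2% (75.0 to 83.0%), against 82.3% of all combined peaks. A replicate 2 peak was found for 394, or 93.1% (90.3 to 95.4%), against 89.6% of all combined peaks, a share below that interval. Both were found for 307, or 72.6%, against 72.0% of all combined peaks. The combined list pools the same reads, so these overlaps are not independent. By class, a replicate 2 peak but no replicate 1 peak was found for 20 of 86 tRNA and 12 of 60 snoRNA members. The reverse held for 2 and 1, and over all 3341 combined peaks the counts were 585 and 341. Peaks of both lists overlapped snoRNA members in 47 of 60 cases, or 78.3%, tRNA members in 64 of 86, or 74.4%, and piRNA members in 34 of 56, or 60.7%. Among these pairs the percentile was higher in replicate 2 for 34 of 47 snoRNA members, or 72.3% (57.4 to 84.4%), and for 38 of 64 tRNA members, or 59.4%, against 1363 of 2407 combined peaks, or 56.6%.

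The lists of the replicates, 17453 peaks for replicate 1 and 29384 for replicate 2, were also compared at equal length by taking the 3341 strongest of each. By the same rule, replicate 1 gave 364 peaks at noncoding starts, of which 45 were nearest to a tRNA, 31 to a snoRNA and 63 to a piRNA gene. Replicate 2 gave 415, of which 94 were nearest to a tRNA, 64 to a snoRNA and 40 to a piRNA gene. The tRNA and snoRNA counts of replicate 2 were thus higher than those of replicate 1, and the piRNA count was lower. The difference between the replicates is that of 1 library against 1 and was not tested. Across the 47 snoRNA members with a peak in both, replicate signals had Pearson's r of 0.53 and Spearman's rho of 0.42. Across the 64 tRNA members they had -0.05 and -0.09, and across all 2407 such combined peaks 0.26 and 0.01. These are correlations across peaks of the same 2 libraries, given as a description. F30H5.4, at 36.4, and K07C10.2, at 33.5, both snoRNA members of the reproducible list, had no replicate 1 peak at all, and were chosen here after their values were seen.

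**Figure D5:**
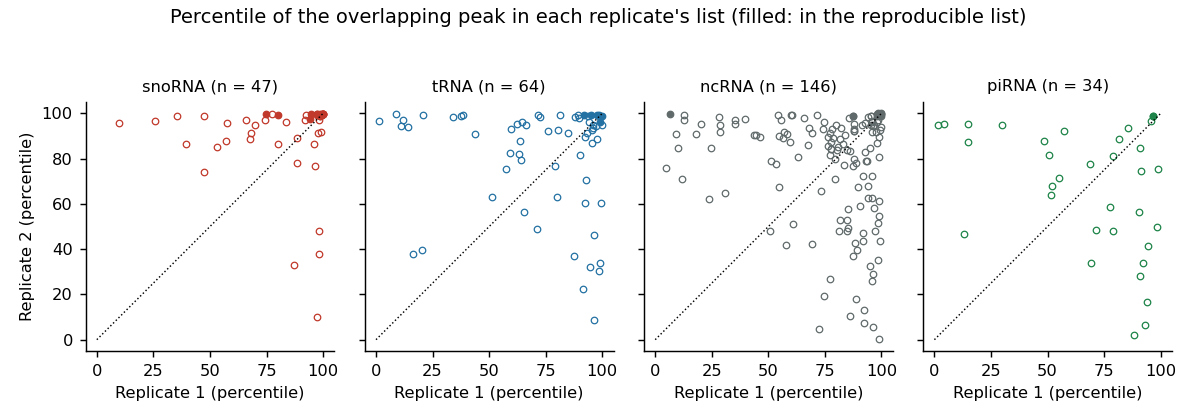
Percentile of the overlapping peak in the replicate 1 list (horizontal) and the replicate 2 list (vertical) for members with a peak in both, by class; filled points are in the reproducible list and the dotted line marks equal percentiles. Of the 47 snoRNA points 34 lie above the line.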

How the data were processed

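ALY-2 ChIP-seq peak lists of replicates 1 and 2, of both combined and past the authors' IDR threshold were used, all on ce11. Per the accompanying file descriptions, each list was derived with a control alignment; for the aligner, peak caller, IDR threshold and read depth nothing is stated in the labels or descriptions. The deposited signal value of a peak is the authors' own, and the deposited −log10 q-value column was read only to describe the lists. The ce10 lists were not used and no coordinate was converted.

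Summits were placed against Ensembl release 115 (WBcel235); tRNA isotypes and sequence came from RefSeq's annotation and genome of the same assembly, and 607 of 612 nuclear tRNA genes had an isotype. The nearest of the starts whose window held the summit gave the class. Window territory is every position in a noncoding start window and in no protein-coding one. A replicate peak matched by at least 1 bp, and the strongest overlapping one gave the percentile. Motifs were searched on both strands in 201-bp windows. Intervals are exact (Clopper-Pearson) for shares and from order statistics for medians, at 95%. No test was run, because there is 1 group and no contrast.

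Members, classes and lists were chosen with earlier results of these data known. Named genes are the 20 members with the highest signal, the 3 highest of each biotype and the carriers of spliced leader and the other fixed genes. Others are said to be chosen after their values were seen. The placement script was tested on simulated data before use. Scripts ran under Python 3.11.15 with matplotlib 3.10.9, scipy 1.17.1 and numpy 2.4.6. Alternatives were a shorter window, piRNA genes left out, a higher signal limit, each replicate alone, a stricter overlap and a narrower GC window, and, added after seeing the data, the looser B box core. The search for either core before snoRNA gene starts was not planned either.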

Additional observations from a re-analysis of the deposited data

How the results depend on the processing

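Shortening the window to 500 bp upstream and 100 bp downstream, for noncoding and protein-coding starts alike, left members at 10.8% of combined peaks. Of these 360 members 66.4% lay within 100 bp of the start. Peaks could enter as well as leave, because fewer were excluded by a protein-coding start, so these members are not a part of the 423. Leaving out piRNA genes gave 11.2%. Keeping only peaks at or above the median signal gave 17.9% of members in the reproducible list, a median signal of 24.0, 83.0% found in both replicates, 53.1% within 100 bp of the start and a median GC of 44.0%. This limit kept 224 members and 1671 combined peaks, among them all 193 of the reproducible list. The higher share and median signal therefore follow from the limit itself. Counting a replicate peak as shared only with summits within 100 bp gave 52.5% in both replicates. GC over 50 bp on each side had a median of 44.6%. With each replicate's list alone, members were 10.6 to 10.8% of peaks, 29.8 to 33.1% of them lay within 100 bp of the start, and median GC was 37.3 to 38.3%; these lists are several times longer and hold weaker peaks. The summit is the midpoint of every combined peak, so that alternative changed nothing. The reproducible share, the median signal and the overlap of both replicates have no value in a single replicate's list. No paired analysis was possible because the only group has no partner. Read depth is unknown and limits every share given here.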

Other observations

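Some members lay close together. There were 30 pairs of neighbouring members with summits at most 1000 bp apart, and in 9 of them the peaks overlapped. The cel-mir-50 members were 201 bp apart, with signals of 38.7 and 17.1, and overlapped the same peak in each replicate's list. F58G1.11 and sup-6, an snRNA-class gene chosen here after its values were seen, had members 207 bp apart, with signals of 39.8 and 20.6. The 16 nearest genes with more than 1 member, among them K11C4.6, F26D10.24 and K11D9.5, give such pairs more weight in counts of peaks than in counts of genes.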
